A study of Drosophila melanogaster with 2 samples.

Results

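The DNA replication-related element is the 8-bp palindrome TATCGATA, and 295 peaks of CG30020-eGFP in Drosophila embryos held an exact copy of it near their centre. They made up 5.84% of the reproducible peaks, of which the other 4753 had no such copy. A peak was a member when the whole element lay within 50 bp of the summit, the base of highest enrichment that the authors deposited for each peak. The choice rests on genome sequence and summit position, not on peak strength or on genes. When the same number of peaks was taken from the strongest of 1 replicate, replicate 2 gave 272 with the element (5.39%) and replicate 3 gave 300 (5.94%). Of the members, 282 carried 1 copy and 13 carried 2.

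The peaks came from chromatin immunoprecipitation and sequencing in 1 group with 2 biological replicates, numbered 2 and 3. Both replicates used whole embryos aged 0 to 24 h, with males and females pooled, from 1 transgenic line in which the CG30020 product carries GFP at its C terminus, and an antibody against GFP pulled down fragments of 200 to 800 bp. The labels do not say which promoter drives the fusion gene, and signal from whole embryos is an average over all cell types. Main values refer to the peaks that passed the authors' irreproducible discovery rate (IDR), a filter that keeps peaks ranked alike in both replicates. With 1 group no test between conditions was possible, so every difference below is a description whose error is the pair of values from each replicate's own strongest peaks, as many as the IDR list holds. The read depth of the libraries is unknown from peak lists.

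The element is the recognition sequence of Dref, a zinc-finger transcription factor of the BED family. Dref is known for activating genes of DNA replication and cell proliferation, and the element is one of the common motifs of housekeeping promoters in flies. The insulator protein BEAF-32 recognises CGATA, which is contained in the element on both strands. The files do not record which proteins other than the CG30020 fusion were at these sites.

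The members below show the element in place, read from the RefSeq genome sequence of Release 6, which is dm6, on the plus strand and with the element in capitals. The first lines are 101-bp windows centred on the summit, at 5 of the 12 strongest members, chosen among those whose window holds no annotated exon. Lamp1, eEF1delta, Nse4 and CG9992 are promoter peaks, and the peak beside ey is intergenic.
Lamp1, chr2L:21573246-21573346: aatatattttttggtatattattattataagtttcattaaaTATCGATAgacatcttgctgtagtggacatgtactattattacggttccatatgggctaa
eEF1delta, chr2L:10232389-10232489: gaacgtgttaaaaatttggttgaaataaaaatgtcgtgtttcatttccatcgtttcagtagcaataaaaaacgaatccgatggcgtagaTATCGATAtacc
Nse4, chr2L:10439301-10439401: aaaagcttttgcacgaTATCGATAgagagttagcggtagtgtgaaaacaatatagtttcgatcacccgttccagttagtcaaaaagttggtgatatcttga
CG9992, chrX:16384961-16385061: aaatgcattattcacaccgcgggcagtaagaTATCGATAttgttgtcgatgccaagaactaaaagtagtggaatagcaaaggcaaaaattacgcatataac
ey, chr4:696893-696993: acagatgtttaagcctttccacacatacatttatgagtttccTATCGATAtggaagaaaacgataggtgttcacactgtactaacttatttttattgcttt
Shorter windows of 30 bp show how a pair of copies can be packed in 1 member. At CG12081 the copies overlap, since their starts are 6 bp apart, and at ATbp they abut, 8 bp apart.
CG12081, chrX:8588750-8588779: tatacTATCGATATCGATAacagcacgacc
ATbp, chrX:23105734-23105763: cctTATCGATATATCGATAgaagatattta
The next lines are members at genes of the cell cycle, of replication origins and of insulators, whose peaks were weak or moderate.
CycA, chr3L:11833571-11833600: cactgtccagcTATCGATAggtcgtggcgt
Orc2, chr3R:13964673-13964702: taatttaaattTATCGATAacgtatgcaat
Orc5, chr2L:13829756-13829785: ttatttcgttaTATCGATAtttttcgattg
CTCF, chr3L:7356716-7356745: gtaccgccagcTATCGATAgttcgattggt
mod(mdg4), chr3R:21377437-21377466: aagtgacaataTATCGATAgcttaaaatat
The last lines are copies within 100 bp of the start of a replication gene that lay in no IDR peak, and they carry the same 8 bases.
PolA1, chr3R:21671742-21671771: tggcgggaacaTATCGATAacagagctacg
PolA2, chr3R:27239136-27239165: ctgactatgctTATCGATAagaaaactcaa
Psf3, chrX:10385119-10385148: gacctatcgccTATCGATAttagatgcatt
Gnf1, chr3R:4906545-4906574: atttagtgagcTATCGATAacgttcagtgc
Sld5, chr3R:26056623-26056652: cgtctaaccgtTATCGATAtcacaaaagca

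The members sat at promoters more often than the other peaks did, and closer to the start site. A promoter peak is one whose summit lies within 500 bp of an annotated transcription start site (TSS). Among the members 259 (87.8%) were promoter peaks, against 71.3% of the 4753 other peaks, where 72.3% of all IDR peaks were. Replicate 2 alone gave 86.4% against 70.4% and replicate 3 alone gave 90.0% against 72.9%, so the difference of 16.5 percentage points was wider than the spread between replicates. It was 7.12 points in the stronger 50% of the IDR peaks. Within 100 bp of a TSS lay 75.3% of members and 35.1% of the others, with 73.5% against 33.9% in replicate 2 and 79.0% against 36.5% in replicate 3. The median offset of promoter summits from the TSS, negative where upstream, was -37 bp in members and -85 bp in the others, with -45 and -90 bp in replicate 2 and -37 and -80 bp in replicate 3. Members away from promoters numbered 36, of which 18 lay in introns, 16 between genes, 1 in a coding exon and 1 in another exon.

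The element itself lay just upstream of the start. Its median position at the 259 promoter members was -34.5 bp from the TSS, with quartiles at -61.5 and -10.5 bp, and at 221 of them (85.3%) it was upstream. At 164 of the promoter members the element was within 50 bp of the TSS. Copies in the genome at large also lie there. Of 1604 copies within 500 bp of a TSS, 1188 were within 100 bp. The 50 bp upstream of a TSS held 664 copies and the 50 bp downstream 208. The rule also ties the element to the summit, so its position is not particular to the members. The 259 promoter members had 258 distinct nearest genes, so almost every one had a nearest gene of its own.

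Divergent promoters, at which a gene on the other strand starts within 500 bp upstream, were as frequent among members as among other promoter peaks. Of the 259 promoter members 105 (40.5%) were divergent, against 40.6% of all promoter IDR peaks. Replicate 2 gave 43.0% in members and 40.9% in the others, and replicate 3 gave 41.1% and 40.1%. The members' share is thus at the background, and its sign changed with the settings tried.

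The members lay on all chromosomes but Y, where the IDR list held 4 peaks. They numbered 48 on 2L, 71 on 2R, 61 on 3L, 49 on 3R, 14 on 4 and 52 on X. Chromosome arm 2R held 24.1% of members and 20.3% of the others, 3R 16.6% and 20.4%, 2L 16.3% and 19.1%, 3L 20.7% and 20.6% and X 17.6% and 15.7%. The share on chromosome 4 was 4.75% in members and 3.81% in the others, but 4.04% against 4.69% in replicate 2, so its direction differed between replicates. Densely bound regions were no more frequent around members, since 13.6% of members and 13.6% of the others lay in 100-kb bins with at least 10% of their bases under IDR peaks. The bases around members held more G and C, with a median of 39.6% of the 101-bp window against 32.7% in the others, although the element itself is rich in A and T. The 2 replicates alone gave 38.6% each for members against 32.7% for the others.

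**Figure D1:**
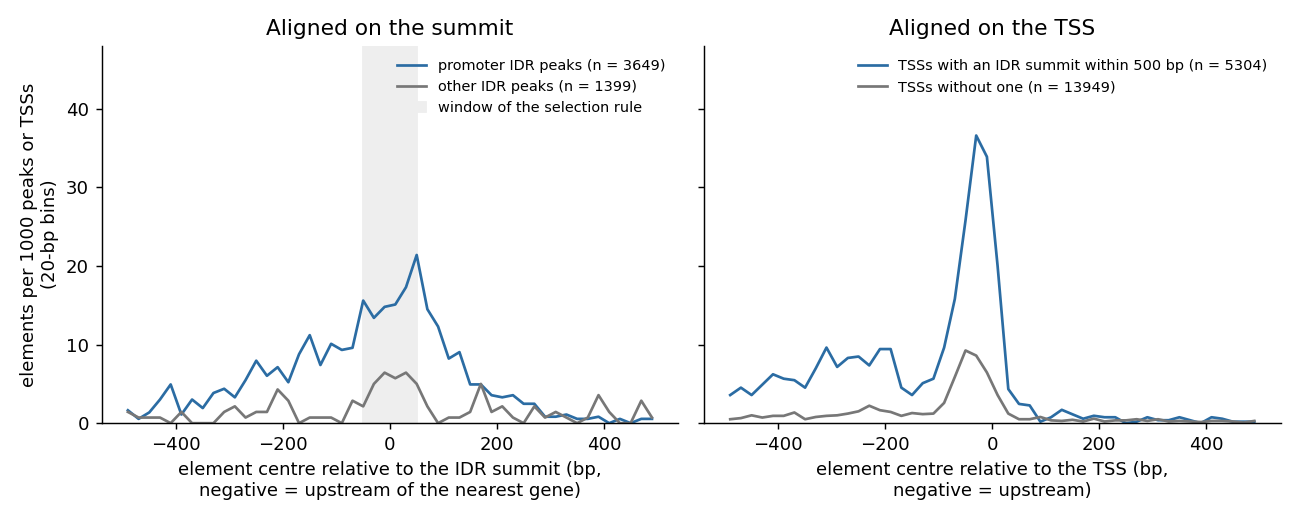
Copies of the element per 1000 peaks or TSSs in 20-bp bins, on the left by distance of the element's centre from the IDR summit (3649 promoter peaks and 1399 other peaks, with the window of the selection rule shaded) and on the right by distance from the TSS (5304 TSSs with an IDR summit within 500 bp and 13949 without one). Around promoter summits the copies extend beyond the shaded window, with 11.2 per 1000 at 160 to 140 bp upstream and 12.3 at 80 to 100 bp on the side of the gene. By TSS the element peaks sharply just upstream, at 36.6 per 1000 bound TSSs against at most 9.25 per 1000 unbound TSSs.

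Within the 50 bp allowed by the rule, the element kept no fixed distance from the summit. Its centre lay within 10 bp of the summit in 67 members, at 10 to 20 bp in 57, at 20 to 30 bp in 54, at 30 to 40 bp in 67 and beyond 40 bp in 50, with a median of 24.5 bp. The density of copies was 70.7 per 100 bp and 1000 peaks within 10 bp of the summit, 64.9 within 50 bp and 57.4 within 100 bp, and it fell to 38.4 within 250 bp. A window of the same width 300 bp to the right of the summit held the element in 0.792% of peaks, and 300 bp to the left in 1.25%. The plot of copies by position shows the same, with a maximum at promoter peaks of 21.4 per 1000 in the bin at 40 to 60 bp from the summit on the side of the gene, which lies across the limit of the window.

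Aligned on start sites, the element had a narrower maximum. At TSSs with an IDR summit within 500 bp it reached 36.6 copies per 1000 at 40 to 20 bp upstream. At TSSs without one the maximum was 9.25 per 1000, at 60 to 40 bp upstream. Peaks just inside and just outside the rule's limit were alike in what the rule did not use. The 67 peaks whose element ended 41 to 50 bp away were at promoters in 91.0% of cases with a median signal of 0.915 times the median IDR peak, and the 65 peaks at 51 to 60 bp in 93.8% with 0.891 times.

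The members were of ordinary strength. Signal is the value that the authors deposited with each peak, and its scale is unknown, so each value here is divided by that of the median IDR peak. For a replicate it is a multiple of the median of the peaks matched to IDR summits within 250 bp. The match is the strongest such peak, and at 32 members in replicate 2 and 37 in replicate 3 it was also the match of a stronger neighbouring IDR summit. The members ran from 0.528 to 31.5 times, with a median of 0.915, against 1.01 for the other peaks. In log2 terms the members' median minus that of the others was -0.14 in the IDR list, 0.00 in replicate 2 and -0.16 in replicate 3. A difference of this size is no larger than the spread between replicates.

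Location changed this picture. Among promoter peaks alone the members were weaker than the others, with a median log2 difference of -0.25 in the IDR list, -0.15 in replicate 2 and -0.25 in replicate 3. Among the peaks away from promoters the members were stronger, by 0.36, with 0.62 in replicate 2 and 0.26 in replicate 3, and this rests on 36 members. Some of these, such as those near ey and CG3107, lay in densely bound 100-kb bins, and others, such as those near Haspin and mRpS5, did not. The difference away from promoters was not computed outside such bins, so whether it goes with the element or with dense binding was not tested. Members with 2 copies had a median of 0.761 times, against 0.922 times for members with 1 copy, so peaks with a pair of copies were not the stronger ones. The order was the same in replicate 2, at 0.677 against 0.928, and in replicate 3, at 0.849 against 0.913.

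The share of peaks with the element did not follow strength inside the IDR list. It was 7.14% among the 504 strongest peaks (36 members), 2.77% among those ranked 505 to 1009 and 6.93% among the weakest. Heavily covered bins held 20 of these 36 members (55.6%) and 48.9% of the other peaks among the 504, and chromosome 4 held 6 of the members (16.7%) and 12.8% of the others. Beyond the IDR list the share fell steeply. In the relaxed lists of 30000 peaks it went from 5.57% of the 3000 strongest to 0.367% of the 3000 weakest in replicate 2, from 5.33% to 0.500% in replicate 3 and from 5.43% to 0.433% in the pooled list.

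The replicates found the members as they found other peaks. Among the strongest peaks of replicate 2, 248 members had a match (84.1%, against 86.5% of all IDR peaks), and among those of replicate 3, 281 had one (95.3%, against 93.6%). Both held 235 of the members. The SD of the log2 ratio of replicate 3 to replicate 2 was 0.61 over the members and 0.61 over the others. When each replicate's own summit was used, the element lay within 50 bp of it in 201 of 292 matched members (68.8%) in replicate 2 and in 204 of 295 (69.2%) in replicate 3, so the summit itself moved between lists by a distance that matters for the rule.

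**Figure D2:**
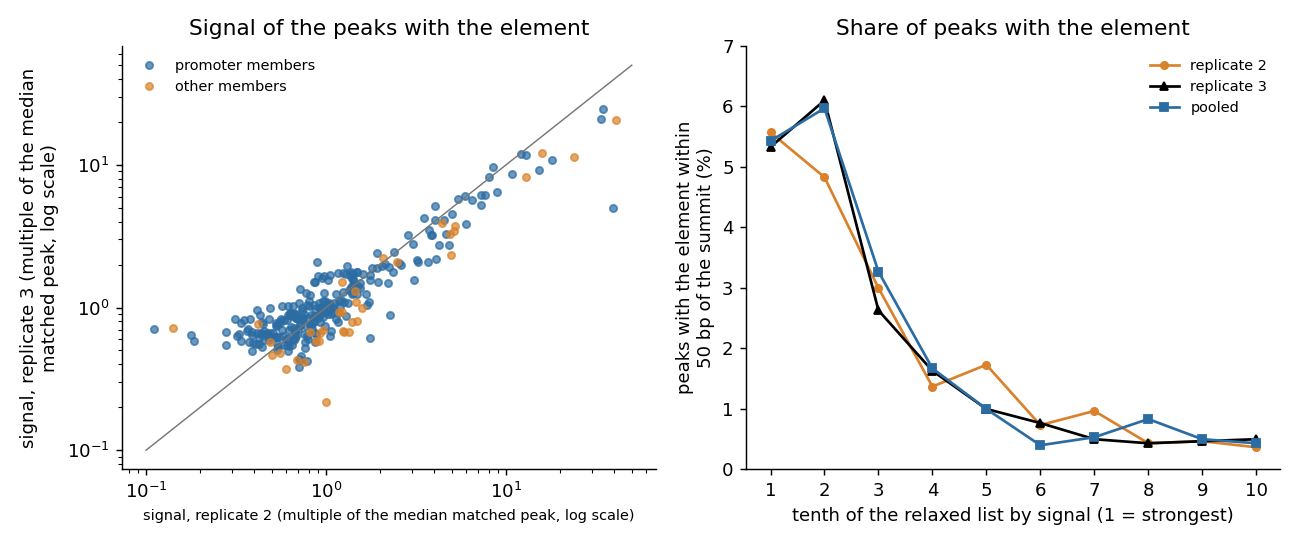
On the left, the signal of each member in replicate 2 and in replicate 3 as a multiple of the median matched peak (log axes, with the line of equal values), for promoter members and for the others. On the right, the share of peaks with the element within 50 bp of the summit along each relaxed list cut into 10 equal parts by signal, from the strongest, where it is 5.33% to 5.57%, to the weakest, where it is 0.367% to 0.500%.

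The 12 strongest members reached 10.4 to 31.5 times the median peak. They comprised 8 promoter peaks and 4 intergenic ones, 5 of them on 2L, 3 on chromosome 4, 2 on 3L, 1 on 2R and 1 on X, and 7 lay in heavily covered bins. The strongest promoter member belonged to Lamp1, which encodes a lysosomal membrane protein, at 31.5 times in the pooled list, 34.6 in replicate 2 and 24.7 in replicate 3, with its summit 93 bp upstream of the TSS. Crk, an adaptor of receptor tyrosine kinase signalling on chromosome 4, stood at 28.2 times (33.8 and 21.1). The translation elongation factor gene eEF1delta stood at 14.7 times (18 and 10.8), with the element 25.5 bp upstream of its TSS.

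Other strong promoter members belonged to genes of several cellular functions. Nse4, a subunit of the Smc5/6 complex of chromosome maintenance, had 13.4 times (12.1 in replicate 2 and 11.9 in replicate 3), and MED26, a Mediator subunit, had 13.2 times (12.9 and 11.7). The non-coding gene lncRNA:CR46475 had 12.6 times (15.2 and 9.17), and CG9992, which shares its divergent promoter with CG4239, had 10.5 times (10.8 and 8.60). The last of these, gny, an enzyme of the synthesis of N-linked glycans, had 10.4 times (8.52 and 9.68). Replicate 2 gave the higher multiple at 11 of the 12 strongest members, and at 143 of all members.

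The strongest members away from promoters were intergenic. Their nearest start sites were those of Haspin, a histone H3 kinase, 1312 bp away at 30.7 times (40.7 in replicate 2 and 20.6 in replicate 3), and of mRpS5, a mitochondrial ribosomal protein gene, 1031 bp away at 17.6 times (24.0 and 11.3). The peak 746 bp from ey, the eyeless gene, had 15.1 times (15.8 and 12.2), and the one 13539 bp from Lamp1 had 11 times (13.0 and 8.25). The fifth, 2133 bp from CG3107, was at 4.77 times (5.21 and 3.70).

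Among the members with 2 copies the strongest was at CG12081, at 3.83 times (3.81 in replicate 2 and 3.21 in replicate 3), where the copies overlap as printed above. ATbp, which encodes a protein that binds AT-rich DNA, followed at 1.92 times (2.20 and 1.48). At Pi3K92E, the catalytic subunit of phosphoinositide 3-kinase, the copies were 27 bp apart and the peak had 1.04 times (0.928 and 1.00). Nipsnap, with copies 29 bp apart, had 0.997 times (0.732 and 0.992), and CG7115, with copies 28 bp apart, had 0.906 times (0.633 and 0.920). The last 3 were at or below the median peak in each replicate.

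Most copies of the element in the genome were not near a summit, but those at promoters were so far more often than promoter bases in general. The genome held 4157 copies, of which 1604 (38.6%) lay within 500 bp of a TSS. Of these promoter copies 269 (16.8%) were wholly within 50 bp of an IDR summit, against 1.88% of all 8-bp positions within 500 bp of a TSS, a ratio of 8.91. Replicate 2 alone gave 15.2% of copies against 1.85% of positions, and replicate 3 alone gave 17.8% against 1.92%. Among the 2553 copies beyond 500 bp, 39 (1.53%) were near a summit against 0.110% of positions there, a ratio of 13.9. Not all of these 39 differ in their flanks. At the members nearest to CG40160, JYalpha and eIF4B the same bases follow the element to the end of the 30-bp window. Whether such copies belong to a repeated sequence was not tested.

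Counted by peak intervals rather than summits, occupancy was higher. Inside an IDR interval lay 754 of the 1604 promoter copies (47.0%) against 8.70% of promoter positions, and inside a relaxed pooled interval 66.9% against 19.8%. Within 100 bp of a TSS 631 of 1188 copies (53.1%) lay in an interval, where 16.5% of positions did. Of the promoter copies inside intervals 35.4% were near the summit, against 21.5% of all positions in promoter intervals (33.9% against 21.8% in replicate 2 and 37.0% against 22.2% in replicate 3). The summit lay upstream of the copy in 68.6% of cases, and the median of summit minus copy, over all of them, was -42.5 bp. This direction held only near the start. Within 100 bp of a TSS the values were 76.4% and -51.5 bp, but at 100 to 500 bp they were 28.5% and 58.5 bp. Replicate 2 gave 79.9% and 37.6% upstream in these 2 zones, and replicate 3 gave 74.3% and 24.8%.

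Occupancy changed with distance from the start, as did the share of all positions. Within 100 bp of a TSS 20.1% of copies were near a summit against 4.08% of positions, a ratio of 4.93, and at 100 to 500 bp 7.21% against 1.18%, a ratio of 6.10. Relative to all positions the copies nearest the TSS were thus not the more occupied ones. In the 50 bp upstream of the TSS, which held 664 copies, 22.3% were near a summit and 58.1% lay in an interval. In the 50 bp downstream, 13.9% of 208 copies were near a summit and 56.2% lay in an interval. From 100 to 50 bp upstream the values were 19.5% and 41.4% of 292 copies, and from 50 to 100 bp downstream 20.8% and 29.2% of 24 copies. At 300 to 500 bp upstream the values were 6.09% and 26.1% of 115 copies, and at 300 to 500 bp downstream 4.26% and 12.8% of 47 copies.

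**Figure D3:**
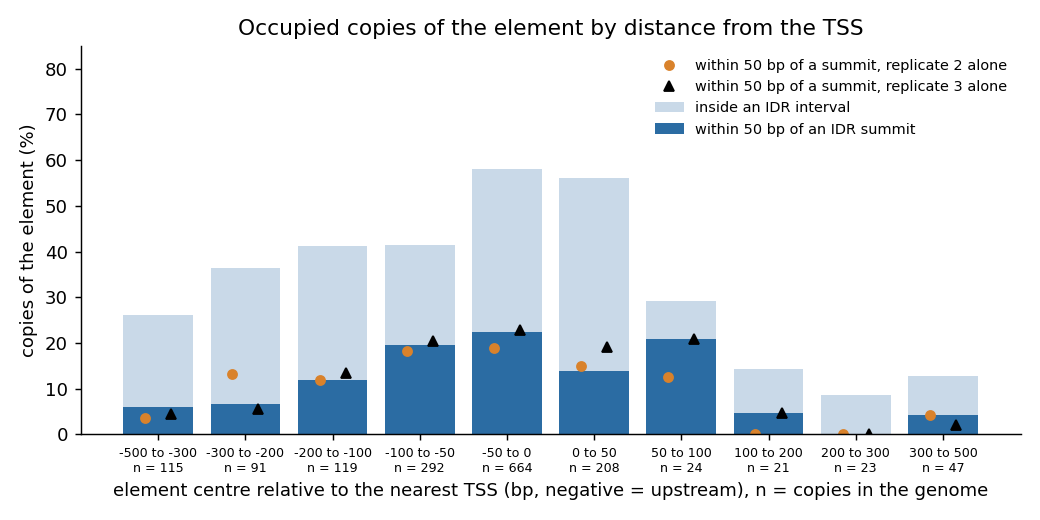
Share of all genomic copies of the element that lay inside an IDR interval (light bars) or wholly within 50 bp of an IDR summit (dark bars), by distance from the nearest TSS, with the values of each replicate's own strongest peaks as points and the number of copies under each bin. The light bars are highest from 50 bp upstream of the TSS (58.1%) to 50 bp downstream (56.2%), the dark bars are highest in the 50 bp upstream (22.3%) with 13.9% in the 50 bp downstream, and both are low beyond 100 bp downstream.

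Every variant of the element that differs from it by 1 base had a lower share of promoter copies near a summit, in the IDR list and in both replicates. Positions are counted from 1 at the 5′ end, and since the element is a palindrome, a change at position 1 is the same site as the complementary change at position 8 on the other strand. The intact element had 16.8% (15.2% in replicate 2 and 17.8% in replicate 3). T1C came closest with 14.0% (13.8% and 12.9%) of 1045 copies, and T1A followed with 9.69% (8.44% and 9.38%) of 1600 copies. T1G had 3.64% (3.64% and 3.21%), so the variants with C or A as the first base lay well above the one with G.

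Changes of the inner bases gave lower shares than T1C and T1A. A2G had 8.29% (7.35% and 6.87%), T3A 7.35% (7.35% and 6.99%) and A2T 6.62% (5.74% and 6.06%), while T3C, T3G and A2C had 5.78%, 4.26% and 3.99%. At the core C, the changes gave 3.68% for C4T, 2.78% for C4A and 1.68% for C4G, the last of which was below the 1.88% of all promoter positions in the IDR list and in replicate 2 (1.51%), though not in replicate 3 (2.18%). The share of copies inside an IDR interval gave nearly the same order, from 47.0% for the intact element, 38.0% for T1C and 30.4% for T1A to 9.21% for C4G. The variants were not matched for distance from the TSS. Of all positions, 4.08% within 100 bp of a TSS and 1.18% at 100 to 500 bp were near a summit. Windows at TSSs held the intact element in 862 cases, for 1604 promoter copies, and C4G in 20 cases, for 597 copies. Whether distance accounts for the order was not tested.

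The element stood at the head of its class. Among the 151 palindromic 8-mers with at least 200 promoter copies it ranked 1 by the share near an IDR summit and 1 by the share in an IDR interval, where the medians of these 8-mers were 1.98% and 9.22%. These 8-mers were not matched for distance from the TSS either. The share near a summit ran from 10.3% to 25.9% over the pairs of bases next to the element. Copies followed by G on both strands, 148 in all, were near a summit in 25.7% of cases (23.6% in replicate 2 and 25.7% in replicate 3). Copies followed by A on both strands, 185 in all, were so in 10.3% (12.4% and 10.8%). The 27 copies followed by C on both strands had 25.9%, but 22.2% in replicate 2 and 14.8% in replicate 3. By interval the shares were 56.8% for G, 45.4% for A and 81.5% for C on both strands, against 47.0% of all promoter copies.

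Some promoter motifs were more frequent beside the members' summits than beside those of other peaks, and others less. Motifs were searched on both strands within 50 bp of the summit, and matches that overlapped the element were left out. CGATA, the sequence recognised by BEAF-32, was present beside the element in 53.9% of members and in 21.5% of the other peaks, with 48.9% against 21.6% in replicate 2 and 52.0% against 21.0% in replicate 3. In windows of the same length at all TSSs, with or without the element, it was found in 21.4%. Its share in TSS windows that hold the element was not computed, so the 53.9% may not be particular to the members. The consensus known as Ohler motif 7, a motif of housekeeping promoters, was in 8.14% of members and 3.26% of the others (8.82% against 3.02% and 8.0% against 3.07%).

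TATAAA, the sequence of the TATA box of regulated promoters, was rarer in members, at 12.2% against 23.7% of the other peaks (12.1% against 24.7% and 10.7% against 24.0%), where 15.4% of all TSS windows hold it. Among promoter peaks alone the values were 10.8% and 23.7%. A match at any place in the window was counted, so it need not be a TATA box. The members' windows also held more G and C (39.6% against 32.7%), and no motif share was adjusted for this. TGATAA was in 4.41% of members and 8.92% of the others, and CAGCTG in 6.78% and 3.72%, below the 8.77% of all TSS windows. The other motifs lay near the level of the other peaks. These were GGTCACAC, the site of M1BP, at 3.39% against 2.90%, GAGAG, the GAGA factor site, at 6.44% against 7.13%, TCAGT, the initiator of many developmental promoters, at 13.9% against 16.5%, CACGTG at 1.02% against 0.842% and CAGGTAG, the site of Zelda, at 0.339% against 0.295%. Ohler motif 6 was in 0.339% against 1.03%, with the direction turned in replicate 3 (1.33% against 0.779%).

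Counted by gene, the element went with occupancy. A protein-coding gene is called bound here when an IDR summit lies within 500 bp of any of its TSSs, which held for 30.7% of 13945 genes. Of the 1196 genes with the element within 100 bp of a TSS, 735 (61.5%) were bound, against 27.8% of the 12749 genes without it. Replicate 2 gave 57.4% against 27.2% and replicate 3 gave 63.0% against 27.8%. In the stronger 50% of the IDR peaks the values were 34.7% against 16.5%. The 12749 genes include 618 with a copy within 500 bp but none within 100 bp of a TSS. Of these, 389 (62.9%) were bound, with 63.6% in replicate 2, 63.1% in replicate 3 and 41.1% in the stronger 50% of the IDR peaks. Genes with a copy only farther from the start were thus bound as often as genes with one within 100 bp. Of these 618 genes 56.6% are divergent, and such a copy can lie nearer the start of another gene. Counted by copy and nearest TSS, 7.21% of copies at 100 to 500 bp were near a summit, against 20.1% within 100 bp. A member lay within 500 bp of a TSS at 370 genes (2.65% of all), of which 283 were among the 735.

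The difference was present on both sides of the division by promoter type. Genes with the element are divergent in 51.6% of cases and genes without it in 27.6%, and divergent genes were bound more often in any case. Among divergent genes 74.1% of those with the element were bound and 59.1% of those without it. Among genes that are not divergent the values were 48% and 15.9%. Genes with 1 annotated TSS gave 57.1% and 23.4%, and genes outside heavily covered bins gave 60.4% and 26.7%. Of the 89 genes with 2 copies within 100 bp 53.9% were bound (52.8% in replicate 2 and 62.9% in replicate 3), against 62.3% of the 1100 genes with 1 copy (57.7% and 63.0%). Among genes with 1 annotated TSS the order was the other way, with 64.6% of 48 genes with 2 copies (58.3% and 68.8%) against 56.8% of 757 genes with 1 copy (53.6% and 58.1%). The median signal was 1.10 times at bound genes with the element and 1.14 times at those without it, with 0.965 and 1.03 times in replicate 2 and 1.01 and 1.04 times in replicate 3.

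**Figure D4:**
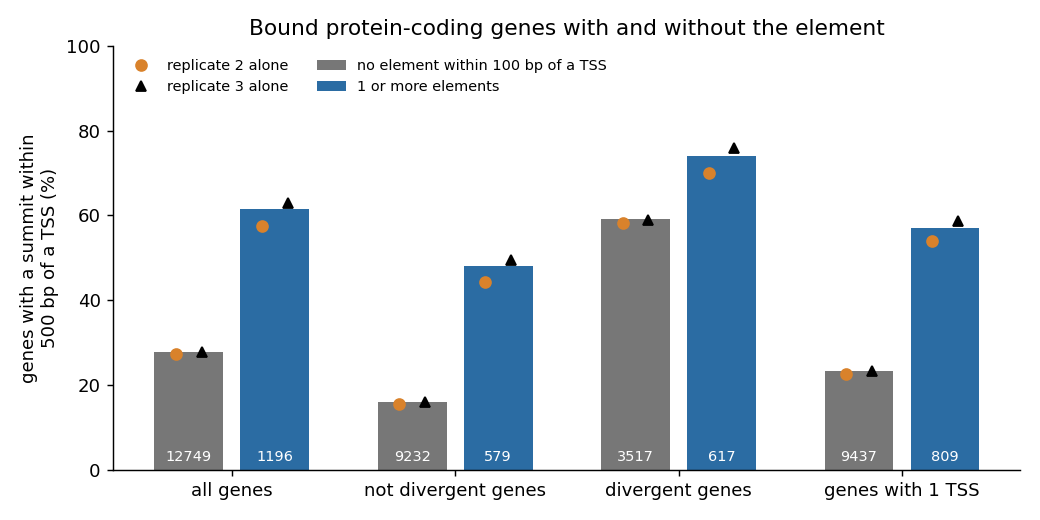
Share of protein-coding genes with a summit within 500 bp of a TSS, for genes without the element (grey bars) and with it (blue bars) within 100 bp of a TSS, for all genes, genes that are not divergent, divergent genes and genes with 1 TSS. Bars are the IDR list, points are each replicate's own strongest peaks, the numbers in the bars are genes, and in each pair the blue bar is the higher one, 61.5% against 27.8% for all genes.

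Of 11 genes long known to be controlled through the element 6 have it within 100 bp of a TSS, and 4 of those 6 (66.7%) were bound, as were 3 of the other 5. The share is near the 61.5% of all genes with the element. Over all 11 genes 63.6% were bound, against 30.7% of all protein-coding genes, and a gene with a member is always a bound one. A member lay at 1 of the 11 genes (9.09%, against 2.65% of all protein-coding genes), CycA, the gene of cyclin A. Its peak was weak, at 0.575 times the median (0.712 in replicate 2 and 0.435 in replicate 3), ranked 4676 in the IDR list, and fell outside the strongest peaks of replicate 3. The median over the 4 bound genes with the element was 0.760 times, against 1.10 times over all bound genes with it.

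At the other bound genes of this list with the element the summit was farther from it. The PCNA gene, which encodes the sliding clamp of DNA polymerase, had a peak of 0.667 times (0.527 in replicate 2 and 0.634 in replicate 3) with its summit 185 bp upstream. The summits at osa and mor, genes of the Brahma chromatin remodelling complex, lay 67 and 133 bp upstream, with 0.853 times (1.03 and 0.650) at osa and 10.3 times (9.99 and 8.75) at mor. PolA1 and PolA2, subunits of DNA polymerase alpha, have the element but no IDR summit, and PolA1 was bound in replicate 3 alone.

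Of the 5 genes of this list that have no exact copy in the window, E2f1, Dref and mtSSB were bound. The E2f1 gene, which encodes a cell-cycle transcription factor, had 0.732 times (0.602 and 0.637), and mtSSB, which encodes the mitochondrial single-strand DNA-binding protein, had 0.989 times (0.748 and 0.917). The gene of Dref itself had 1.90 times (1.67 and 1.74). Raf, a kinase of growth signalling, and TFAM, a factor of the mitochondrial genome, were not bound in the IDR list or in either replicate.

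DNA replication genes were bound at similar rates with and without the element. Of 41 genes of this list, which shares 3 genes with the one above, 12 have the element, and 7 of these (58.3%) were bound, against 18 of the other 29 (62.1%). The order turned in the replicates, with 7 (58.3%) against 16 (55.2%) in replicate 2 and 8 (66.7%) against 18 (62.1%) in replicate 3. Mcm2 and RPA1 share 1 IDR summit of 1.44 times and count as 2 of the 18 bound genes without the element. Members lay at 3 of the 41 genes (7.32%, against 2.65% of all protein-coding genes). They included Orc2 and Orc5, subunits of the origin recognition complex, at 1.11 times (0.997 in replicate 2 and 1.07 in replicate 3) and 0.848 times (0.609 and 0.812). Another member lay within 500 bp of the start of chif, the regulatory partner of the Cdc7 kinase, at 0.751 times (1.42 and 1.71), where the replicate 3 value is that of a stronger neighbouring summit. The member's copy at Orc2 lay 197.5 bp upstream, while the copy that counts the gene as having the element lay 20 bp downstream of the start. At chif, too, the member's copy is not the one within 100 bp of the start.

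The 5 genes of that list with the element and no IDR summit were PolA1, PolA2, Sld5, Psf3 and Gnf1, whose sequences are printed above. Sld5 and Psf3 encode subunits of the GINS helicase complex and Gnf1 the large subunit of the clamp loader. The element is centred 6 bp upstream of the start of PolA1 and 13 bp upstream of that of PolA2. An exact copy at the start of a gene was therefore not always under a peak.

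The genes of Dref partners and of promoter and insulator proteins were nearly all bound, with or without the element. Of 18 genes 7 have the element within 100 bp of a TSS and all 7 were bound in the IDR list and in each replicate, while 9 of the other 11 were bound, Trf2 and ZIPIC being the exceptions. Ibf1 and Ibf2, a divergent pair of insulator protein genes, share 1 summit of 0.621 times (0.835 and 0.643) and count as 2 of the 7. Since only a bound gene can have a member, the share with a member depends on the share bound, 88.9% here against 30.7% of all protein-coding genes. Members lay at 2 of the 18 genes (11.1%, against 2.65% of all protein-coding genes). They were mod(mdg4), an insulator cofactor, at 1.46 times (1.39 and 1.24), and CTCF at 0.676 times (0.605 and 0.602).

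At the others of these genes with the element, the summit was outside the limit of the rule. Cp190, with 2 copies, had 4.98 times (4.77 in replicate 2 and 4.24 in replicate 3) with its summit 126 bp upstream. Iswi, the ATPase of nucleosome remodelling complexes, had 0.871 times (0.554 and 0.853) and pita 1.24 times (1.08 and 1.06). The median over the 7 genes was 0.871 times, and over the 9 bound genes without the element 1.90 times.

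Those 9 bound genes ran from 0.598 times at BEAF-32 to 26.3 times at Clamp. Dref stood at 1.90 times, pzg, a partner of Dref, at 1.94 times (2.17 and 1.54), and E(bx), of the NURF remodelling complex, at 1.55 times (1.59 and 1.28). M1BP stood at 2.48 times (2.23 and 2.22) and Chro at 4.72 times (4.26 and 4.2), while su(Hw) and Trl were lower, at 0.747 times (0.722 and 0.641) and 0.714 times (0.643 and 0.659). BEAF-32 and E(bx) have a copy between 100 and 500 bp from a TSS, but no member.

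Cytoplasmic ribosomal protein genes were bound at high rates whether or not they have the element. Of 86 cytoplasmic ribosomal protein genes 24 have it, of which 21 (87.5%) were bound, against 52 of the other 62 (83.9%), with 87.5% against 79.0% in replicate 2 and 91.7% against 83.9% in replicate 3, and the median signal was 1.33 and 1.37 times. Only a bound gene can have a member, and 84.9% of this list was bound against 30.7% of all protein-coding genes. A total of 9 of these genes had a member (10.5%, against 2.65% of all protein-coding genes). The strongest were at RpL41 at 1.85 times (0.886 in replicate 2 and 2.07 in replicate 3), RpL19 at 1.60 (0.905 and 1.67), RpS10b at 1.43 (0.871 and 1.5) and RpS13 at 1.25 (0.777 and 1.27). In all 4 the value was below the median peak in replicate 2 and above it in replicate 3. The RpL41 and RpS13 members lie at divergent promoters, where the nearest start is that of NaCP60E and of CSN8. The member's copy at RpS13 is not the one within 100 bp of its start. Of 73 mitochondrial ribosomal protein genes 16 have the element, and 13 of these (81.2%) were bound, against 40 of the other 57 (70.2%). In replicate 2 the values were 11 (68.8%) against 35 (61.4%) and in replicate 3 12 (75%) against 39 (68.4%). Members lay at 2 of the 73 genes (2.74%, near the 2.65% of all protein-coding genes), although 72.6% of the 73 were bound. They were mRpL17 at 1.21 times (1.30 and 1.97) and mRpS17 at 0.829 times (0.949 and 1.61), and in both the replicate 3 value is that of a stronger neighbouring summit. The copy at mRpS17 is 406 bp upstream, so this gene is among the 57 counted as without the element.

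The tagged gene has no copy of the element within 500 bp of its start. At CG30020 (FBgn0050020, on 2R) the strongest IDR summit lay 22 bp upstream of the TSS at 1.30 times the median, and it was no member.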

How the data were processed

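The authors deposited peak lists on dm6 for each replicate, the pooled replicates and the IDR set. Per the notes deposited with the files, the replicate and pooled lists were called against 1 control alignment and the IDR set was derived from them. The aligner is not given in the sources used here, nor is the peak caller. The signal deposited by the authors has no stated scale and was used only as ranks or as a multiple of a list's median. Peak intervals that overlap were merged into 4102 intervals.

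Sequence came from the RefSeq genome of Release 6 and gene models from Ensembl release 115. Copies of the element were counted wholly within 50 bp of a summit with Python 3.11.15, numpy 2.4.6 and pandas 2.3.3, plots were drawn with matplotlib 3.10.9, and the search was checked on planted elements. The members, the 5 gene lists and the settings were chosen with earlier results of these data known.

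Genes were named by rule: those nearest to the 12 strongest members, to the 5 strongest members with 2 copies and to the 5 strongest away from promoters, all genes of the reported list, the bound genes of the Dref and insulator list, up to 4 strongest members of each other list, and CG30020. Replication genes with the element and no IDR summit were chosen after their values were seen. Alternatives changed the window, the promoter distance, the peak threshold, the peak list, overlapping rows, chromosomes and the match.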

Additional observations from a re-analysis of the deposited data

How the results depend on the processing

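Leaving out either replicate gave 5.39 to 5.94% of peaks with the element, a promoter difference of 16.0 to 17.1 percentage points, a median log2 signal difference of -0.16 to 0.00, 15.2 to 17.8% of promoter copies near a summit, a median distance of 22.0 to 23.5 bp, and a gene difference of 30.3 to 35.3 points. The difference in divergent share (main value -0.0199 points) had no stable sign: 1.01 and 2.09 with replicates 3 and 2 alone, 4.65 with 100 bp around the summit, 4.93 and 0.729 with divergence windows of 200 and 1000 bp, 0.0369 without chromosomes 4 and Y, but -4.57 with 25 bp around the summit, -3.49 with 1 summit per merged interval and -7.76 in the stronger 50% of peaks.

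Windows of 25 and 100 bp in place of 50 bp gave 2.69 and 10.3% of peaks, promoter differences of 15.6 and 20.6 points, 7.42 and 31.9% of promoter copies, and median distances of 10.5 and 41.5 bp. The 6-bp core ATCGAT was in 13.2% of peaks. In the stronger 50% of peaks the share was 5.07%, the promoter difference 7.12 points, the share of promoter copies 6.92% and the gene difference 18.2 points. Promoter windows of 200 and 1000 bp gave differences of 24.0 and 14.0 points and 19.1 and 14.7% of copies. Overlap with an interval gave 47.0% of copies and 1 summit per merged interval 13.8%. Without chromosomes 4 and Y the promoter difference was 18.4 points. Divergent genes alone gave a gene difference of 15 points; the alternatives of the gene difference were chosen after seeing the data.

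No paired analysis was possible because there is 1 group. The control alignment and the reads were not analysed here, read depth is unknown, and the summit, which decides membership, is a single base within a far wider peak.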
